A study of Mus musculus with 6 samples.

Results

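The genes described are 30 listed genes of sterol and fatty acid synthesis, measured in NIH3T3 cells, an immortalised mouse fibroblast line. They were listed by symbol, and the list was drawn up with earlier results of these data known. They were read from probe sets of an Affymetrix array that the platform annotation assigned to 1 of these symbols alone. Of the 30 genes, 29 were named by at least 1 such probe set, with 67 probe sets among 45037 on the array, and Acat2, a cytosolic thiolase, was named by 0. The brightest probe set, by its mean over all arrays, stood for each gene, and all 29 lay above the median signal of all probe sets, which was the filter for testing. In all, 11846 genes of 18193 named ones passed that filter.

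Total RNA was taken from 6 samples of clone M, a single NIH3T3 clone with multiple lacO insertions, the DNA element that the lac repressor binds. In 3 tethered samples, numbered 1 to 3, the insertion lay at the nuclear periphery, and in 3 untethered samples, numbered 1 to 3, it lay centrally. All 6 were grown in DMEM with 10% fetal calf serum at 37 degrees and 5% CO2 to about 80% confluency, so both groups had the same serum as a source of cholesterol and fatty acids. Separate cultures are not stated for arrays of the same group, so the p-values measure the spread between these samples, which may be technical, and in bulk RNA fewer expressing cells and less RNA per cell cannot be told apart.

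Animal cells build cholesterol from acetyl-CoA through mevalonate, isoprenoid diphosphates, squalene and a chain of ring modifications, and they build fatty acids from acetyl-CoA through malonyl-CoA. Genes of both routes are targets of the SREBP transcription factors, which SCAP carries out of the endoplasmic reticulum when sterols are scarce and INSIG proteins hold back when sterols are plentiful. SREBPs bind sterol regulatory elements near the start of target genes, often beside sites for the CCAAT-binding factor NF-Y. The study asked about transcription of regions brought to the inner nuclear membrane, and the labels give no position of the insertions relative to these genes.

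Promoter sequence was looked up for the 29 genes because 12 of the 17 sterol enzyme genes measured had the same lowest array, as described below. RefSeq windows of assembly GRCm38.p6, from 250 bases before to 50 bases after an annotated start, were found for 23 genes, with 31 windows. Each was searched on both strands for TCACNCCAC, a form of the sterol regulatory element (reverse complement GTGGNGTGA), and for CCAAT (reverse complement ATTGG). The second motif was present in all 14 sterol enzyme genes with a window, in 4 of 5 regulator genes and in 2 of 4 fatty acid enzyme genes, against 42.3% of 17492 protein-coding genes in the same table. Those 14 include Pmvk, Tm7sf2, Nsdhl, Ebp and Hsd17b7, which were not lowest in the shared array, tethered 2. Fdps, Fdft1 and Sqle, which were lowest there, had no window. Since every sterol enzyme gene with a window carried CCAAT, the motif cannot sort these genes by their lowest array. The sterol element in this strict form was present in 1 gene, Hmgcs1, at positions -137 to -129 from the start, against 1.41% of protein-coding genes. A match is a string of letters and not a bound site, and the absence of a match says only that these letters are not in the window. The windows below are those of Hmgcs1, which alone held both motifs, Mvk, which held the most CCAAT matches, Mvd, which had the widest range of signal among these genes, Insig1, which had the lowest fold change, and Fasn, where a CCAAT match on each strand overlaps the other. They are written 5′ to 3′ on the gene's strand, with matches in capitals, and lie at chr13:119690101-119690400 (+), chr5:114444019-114444318 (+), chr8:122443373-122443672 (-), chr5:28071162-28071461 (+) and chr11:120824498-120824797 (-), in the same order.
Hmgcs1: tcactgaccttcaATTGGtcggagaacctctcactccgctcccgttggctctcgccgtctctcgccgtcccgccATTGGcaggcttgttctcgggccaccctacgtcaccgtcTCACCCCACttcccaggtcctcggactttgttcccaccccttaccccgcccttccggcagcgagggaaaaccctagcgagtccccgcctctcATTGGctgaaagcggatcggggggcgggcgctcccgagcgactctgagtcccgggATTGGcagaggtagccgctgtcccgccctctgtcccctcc
Mvk: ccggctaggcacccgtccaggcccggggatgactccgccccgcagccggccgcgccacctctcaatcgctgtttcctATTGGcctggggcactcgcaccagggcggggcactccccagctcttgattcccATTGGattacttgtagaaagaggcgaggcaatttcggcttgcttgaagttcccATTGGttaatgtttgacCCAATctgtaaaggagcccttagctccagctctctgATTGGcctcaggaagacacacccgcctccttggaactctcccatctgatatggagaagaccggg
Mvd: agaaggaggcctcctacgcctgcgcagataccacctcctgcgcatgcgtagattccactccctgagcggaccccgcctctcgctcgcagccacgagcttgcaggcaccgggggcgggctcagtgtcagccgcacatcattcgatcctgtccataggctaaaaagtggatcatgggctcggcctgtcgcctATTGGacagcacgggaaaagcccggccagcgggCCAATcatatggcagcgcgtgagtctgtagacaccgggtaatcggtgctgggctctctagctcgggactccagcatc
Insig1: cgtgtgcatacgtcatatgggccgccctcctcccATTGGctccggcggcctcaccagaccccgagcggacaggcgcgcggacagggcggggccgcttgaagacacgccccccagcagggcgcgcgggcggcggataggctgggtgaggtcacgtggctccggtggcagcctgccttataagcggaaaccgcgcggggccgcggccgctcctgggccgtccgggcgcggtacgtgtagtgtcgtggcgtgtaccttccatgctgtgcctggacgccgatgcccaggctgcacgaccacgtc
Fasn: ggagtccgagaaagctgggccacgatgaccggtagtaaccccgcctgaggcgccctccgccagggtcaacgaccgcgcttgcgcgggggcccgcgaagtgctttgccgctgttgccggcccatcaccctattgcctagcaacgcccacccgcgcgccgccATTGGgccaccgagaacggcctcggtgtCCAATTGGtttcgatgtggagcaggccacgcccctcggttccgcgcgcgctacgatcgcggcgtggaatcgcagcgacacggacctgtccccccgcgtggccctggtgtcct

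**Figure D1:**
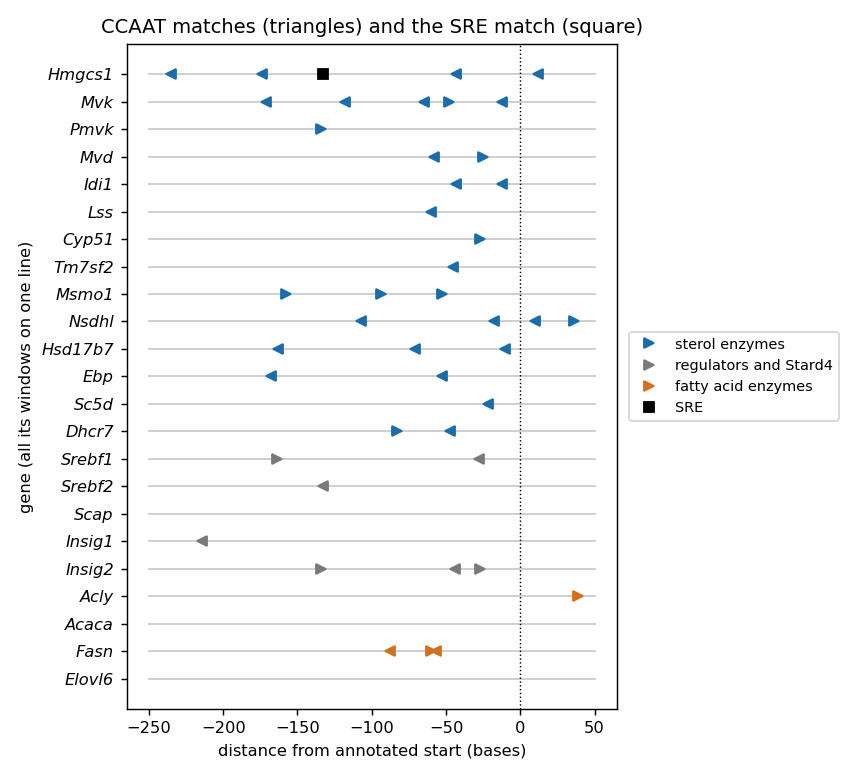
Positions of CCAAT matches (triangles, pointing right for the gene's strand and left for the other) and of the single TCACNCCAC match (square) in promoter windows of 23 genes, by distance in bases from the annotated start. All 14 sterol enzyme genes carry at least 1 CCAAT match, and Scap, Acaca and Elovl6 carry none.

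Array quality and identity were checked before the comparisons. Array medians ran from 482.5 to 490.8 intensity units. On the log2 scale and over tested probe sets, correlation was highest between tethered 3 and untethered 3 (0.991) and lowest between tethered 1 and tethered 3 (0.920), and both arrays numbered 1 stood apart on the first principal component, at -38.0 and -30.3, with the others between 5.49 and 26.6. All 8 fibroblast markers passed the filter, and all 8 had log2 fold changes below 0 (median -0.09), from -0.73 for Pdgfrb to -0.02 for Col1a2. Pdgfrb, a growth factor receptor, was lowest in tethered 2 and did not overlap between the groups, while the other 7 were lowest in tethered 1. Among tested markers of other cell types, Adgre1 also lay lower in tethered arrays without overlap, and Pecam1 and Kdr lay higher. Over all genes, 4.1% had no overlap with tethered lower and 4.3% with tethered higher. Of 8 adipocyte markers on the array, 3 passed (Fabp4, Retn and Cebpa), while Adipoq, Pparg, Cidec, Lep and Lpl did not. Of the other marker lists, 3 of 6 macrophage, 2 of 5 endothelial, 1 of 4 epithelial and 4 of 4 hepatocyte genes passed, so passing the filter is no call of presence. RNA integrity was read from the control probe sets for the transferrin receptor, as 5′ minus 3′ log2 signal, which was -2.09, -1.67 and -1.55 in tethered 1 to 3, against -2.81, -3.07 and -1.52 in untethered 1 to 3. The same measure for actin was -0.29, -0.10 and -0.12 in tethered 1 to 3, against -0.31, -0.56 and -0.15 in untethered 1 to 3, and for Gapdh it lay between -0.060 and 0.095. The log2 signal of the 18S ribosomal RNA control was 10.94, 10.48 and 10.79 in tethered 1 to 3, against 12.06, 12.16 and 11.15 in untethered 1 to 3, so the groups did not overlap and tethered 2 was lowest.

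Across all 29 genes, tethered and untethered cells did not differ past the threshold. The limma test, with Benjamini-Hochberg adjustment over 22518 probe sets and a threshold of 0.05, called 0 of the 29 genes, where the percentage called over all genes was 0%, and the smallest adjusted p among them was 0.999. At an unadjusted p under 0.05 there were also 0 of 29, beside 2.44% of all genes, 1.77% with tethered lower, and 2.38% of all probe sets. That count rested mainly on tethered 1: it was 9 of 29 without tethered 1, beside 6.77% of all genes. Without untethered 1 it was 1 of 29, beside 3.36%, and without both arrays numbered 1 it was 12 of 29, beside 6.39%. Leaving out tethered 1, the highest array in 8 of 17 sterol enzyme genes, lowers their tethered means by construction. The genes vary together over the arrays, so these counts are not of independent results and do not show a difference between the groups. The sterol genes often shared their lowest array. Of 17 sterol enzyme genes measured, 12 had their lowest signal of the 6 arrays in tethered 2, and 8 had their highest in tethered 1, with 6 highest in untethered 2 and 3 in untethered 3. In 8 of the 17 both held, and 5 of the 17 had their lowest signal in an untethered array. Over all genes tested, tethered 2 was lowest in 20.3% and tethered 1 highest in 17.4%. The count of 12 of 17 was the same after quantile normalization, with arrays centred on their medians and with the mean of each gene's probe sets, alternatives chosen after seeing the data.

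The mean deviation of the 17 sterol enzyme genes from their own 6-array means was 0.20, -0.32 and -0.08 on the log2 scale in tethered 1 to 3, against -0.06, 0.16 and 0.09 in untethered 1 to 3. Tethered 1 lay above the span of the untethered arrays, tethered 2 well below it and tethered 3 just below it. For all genes tested the same means lay between -0.05 and 0.06. Those are means over 11846 genes on arrays with nearly equal medians, which keeps them near 0. They do not show how far a list of 17 genes that vary together would move. Between arrays the sterol enzymes ranged by a median of 0.59 log2 units per gene, from 0.12 for Hsd17b7 to 1.45 for Mvd, beside a median of 0.33 for all genes tested and 0.36 for the 6 fatty acid enzyme genes. The same median was 0.74 for the 8 fibroblast markers, so a wide range was not particular to the sterol enzymes. It was 0.51 for genes of sterol uptake, storage and efflux and 0.46 for genes of SREBP processing, both described below. Among the controls, the 18S signal was also lowest in tethered 2, and actin's 5′ minus 3′ signal was highest there (-0.10), while the transferrin receptor value of tethered 2 lay between those of tethered 1 and tethered 3. The part of RNA quality and of these controls in the order of arrays was not tested.

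**Figure D2:**
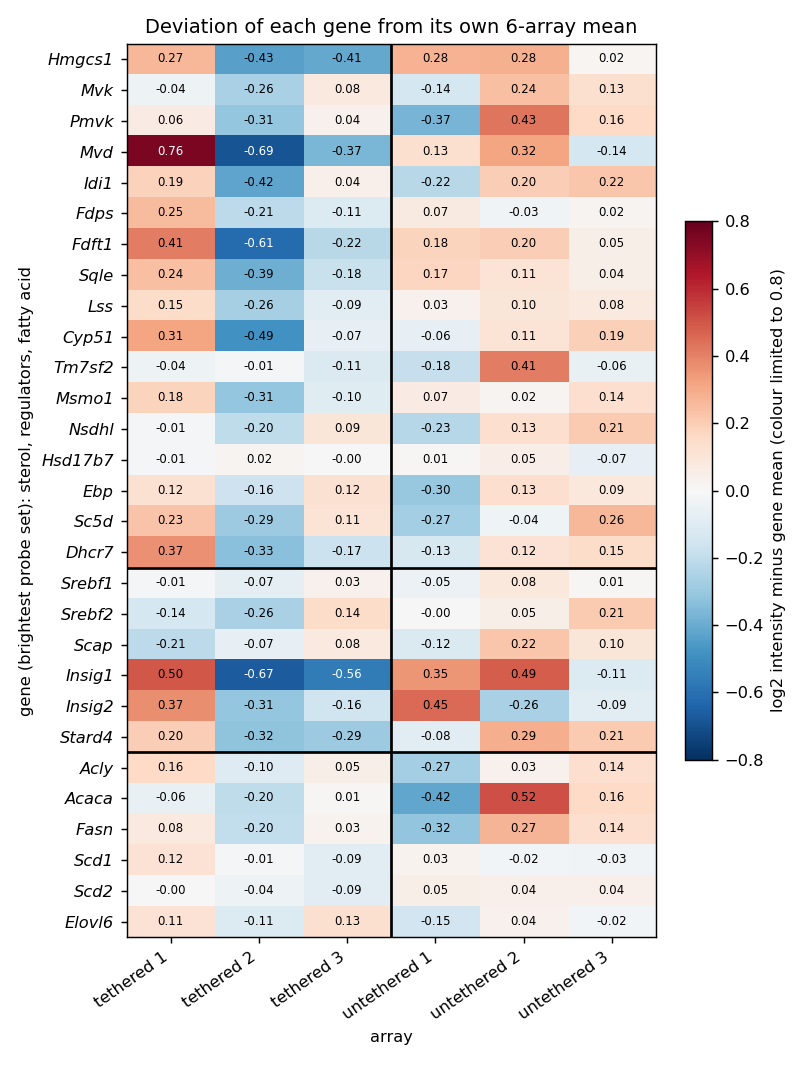
Deviation of log2 intensity from each gene's 6-array mean for 29 genes (rows; sterol enzymes above, regulators and Stard4 in the middle, fatty acid enzymes below) in 3 tethered and 3 untethered arrays (columns). Tethered 2 is the lowest array for 12 of 17 sterol enzymes, and Hsd17b7, Srebf1 and Scd2 hardly vary on the brightest probe sets shown here.

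**Figure D3:**
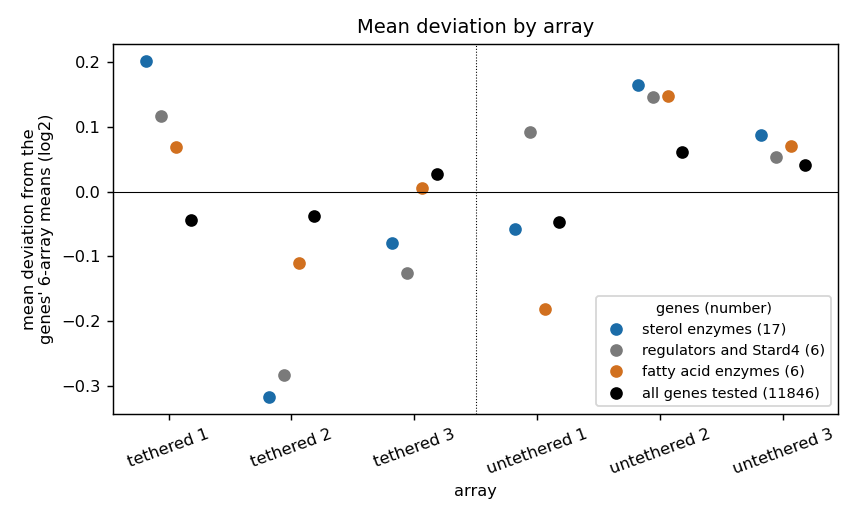
Mean deviation from the genes' 6-array means (log2 units, vertical axis) for each list in each array, with the number of genes in the legend. Sterol enzymes stand at 0.20 in tethered 1 and -0.32 in tethered 2, and all genes tested stay between -0.05 and 0.06. Nearly equal array medians keep the means over all genes near 0, so they are no yardstick for a short list.

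Among the genes from acetyl-CoA to farnesyl diphosphate, all 6 measured had a log2 fold change (tethered minus untethered) below 0, with a median of -0.15, and 0 were called. Hmgcs1, which makes HMG-CoA, had intensities of 8069, 4972 and 5047 in tethered 1 to 3, against 8127, 8172 and 6779 in untethered 1 to 3. Tethered 2 and 3 were the lowest of the 6, and tethered 1 lay among the untethered arrays, so the groups overlapped. Its log2 fold change was -0.38 (SE 0.21, 95% interval -0.89 to 0.12, n = 3 each; limma adjusted p = 0.999). Its 4 tested probe sets all had values below 0, from -0.65 to -0.36.

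Mvd, which decarboxylates mevalonate diphosphate to the isoprenoid unit, varied most among the 29 genes. It had intensities of 3166, 1159 and 1456 in tethered 1 to 3, against 2052, 2335 and 1698 in untethered 1 to 3, a 2.73-fold span between tethered 1 and tethered 2. Untethered arrays fell between the extremes of the tethered ones. The log2 fold change was -0.20 with a 95% interval of -1.12 to 0.72, and without tethered 2 it was 0.094. Mvd's other probe set repeated the order of the tethered arrays at 3670, 947 and 1250, against 2208, 2177 and 1785 in untethered arrays.

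Mvk and Pmvk, the kinases that phosphorylate mevalonate and its phosphate, differed in their low array. Mvk gave 1465, 1263 and 1590 in tethered 1 to 3, against 1369, 1780 and 1647 in untethered 1 to 3. Pmvk gave 911, 703 and 894 in tethered 1 to 3, against 673, 1176 and 973 in untethered 1 to 3. Mvk was lowest in tethered 2 and Pmvk in untethered 1, both were highest in untethered 2, and their log2 fold changes were -0.15 (SE 0.13) and -0.14 (SE 0.22). Idi1, the isomerase that makes dimethylallyl diphosphate, had 5340, 3497 and 4821 in tethered 1 to 3, against 4028, 5377 and 5472 in untethered 1 to 3. Fdps, farnesyl diphosphate synthase, had 12631, 9185 and 9836 in tethered 1 to 3, against 11139, 10406 and 10765 in untethered 1 to 3. Both were lowest in tethered 2, with log2 fold changes of -0.13 (SE 0.20) and -0.04 (SE 0.13).

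The pair of genes for squalene had values below 0 and the same low array. Fdft1, squalene synthase, had 5355, 2629 and 3456 in tethered 1 to 3, against 4551, 4609 and 4164 in untethered 1 to 3. Sqle, squalene epoxidase, had 8621, 5553 and 6437 in tethered 1 to 3, against 8199, 7875 and 7514 in untethered 1 to 3. In both genes the tethered arrays held the highest value and the lowest pair, while the untethered arrays were close together. Their log2 fold changes were -0.28 (SE 0.25, 95% interval -0.90 to 0.34) for Fdft1 and -0.22 (SE 0.16, 95% interval -0.62 to 0.18) for Sqle, both with a limma adjusted p of 0.999.

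Of the 9 genes that turn squalene epoxide into cholesterol, 6 had log2 fold changes below 0 and 3 above, between -0.16 and 0.05, with a median of -0.09. Lss, which closes the sterol rings, had 4179, 3146 and 3557 in tethered 1 to 3, against 3872, 4040 and 3982 in untethered 1 to 3. Cyp51, lanosterol demethylase, had 7786, 4474 and 5980 in tethered 1 to 3, against 6002, 6777 and 7166 in untethered 1 to 3. Msmo1, the methylsterol oxidase, had 9771, 6972 and 8064 in tethered 1 to 3, against 9047, 8779 and 9484 in untethered 1 to 3. In these 3 genes tethered 1 was highest and tethered 2 lowest, and the log2 fold changes were -0.14 (SE 0.11), -0.16 (SE 0.21) and -0.15 (SE 0.13).

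Dhcr7, the last reductase of one branch, followed the same order, with 1452, 892 and 998 in tethered 1 to 3, against 1032, 1219 and 1249 in untethered 1 to 3 (log2 fold change -0.09, SE 0.19). Sc5d, a sterol desaturase, was lowest in tethered 2 and highest in untethered 3, with 3541, 2470 and 3256 in tethered 1 to 3, against 2501, 2947 and 3626 in untethered 1 to 3 (0.03, SE 0.19). Nsdhl, Ebp and Tm7sf2 instead had their lowest signal in untethered 1, at 4890, 2211 and 1018, and log2 fold changes of -0.08, 0.05 and -0.11. Hsd17b7, a sterol ketoreductase, was the steadiest of the sterol genes on its brightest probe set, with 2160, 2209 and 2177 in tethered 1 to 3, against 2192, 2264 and 2082 in untethered 1 to 3. Its log2 fold change there was 0.002, with a 95% interval of -0.15 to 0.16, the narrowest of the sterol enzymes. Another tested probe set of Hsd17b7 spanned 2.09-fold, from 705 in tethered 2 to 1472 in untethered 2.

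The median log2 fold change of the 17 sterol enzyme genes was -0.138, with 14 of 17 values below 0, beside a median of -0.022 and 58.8% of values below 0 over all genes tested. No test was made over the list, and the 8 fibroblast markers, all below 0, lay on the same side. Without tethered 2 the median was -0.007 and 9 of 17 values were below 0, and without untethered 2 it was -0.067 with 12 of 17. Without both arrays numbered 1 it was -0.28, with 16 of 17 values below 0. After quantile normalization the median was -0.076, and with arrays centred on their medians it was -0.130. The groups overlapped in all 17 genes, where 8.4% of all genes had groups that did not overlap, 4.1% with tethered lower and 4.3% with tethered higher.

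**Figure D4:**
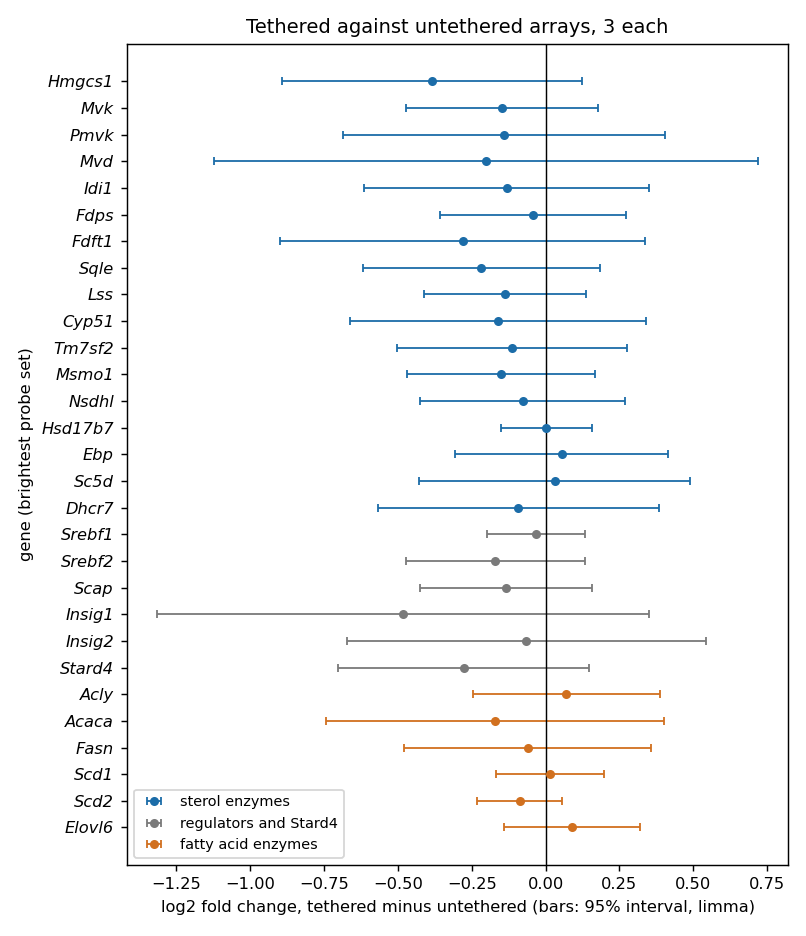
Log2 fold change, tethered minus untethered, of 29 genes by their brightest probe set, with 95% intervals from limma over 3 arrays a group. Every interval includes 0, and the widest belong to Mvd and Insig1, the genes with the largest range between arrays.

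Regulators of the pathway all had log2 fold changes below 0, and 0 of 6 were called. Insig1, which retains SCAP in the endoplasmic reticulum and is itself an SREBP target, had the lowest value of the 29 genes. Its intensities were 7119, 3177 and 3428 in tethered 1 to 3, against 6432, 7070 and 4664 in untethered 1 to 3. Tethered 2 and 3 were the lowest pair, and tethered 1 was the highest array of all. The log2 fold change was -0.48 (SE 0.34, 95% interval -1.32 to 0.35; limma adjusted p = 0.999), -0.85 without tethered 1 and -0.27 without tethered 2.

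Insig2, the second INSIG gene, differed between its probe sets. The brightest had 1322, 824 and 918 in tethered 1 to 3, against 1400, 855 and 959 in untethered 1 to 3. Both arrays numbered 1 were high and the other 4 were close together, and the log2 fold change was -0.07 (SE 0.25). The other tested probe set had 926, 576 and 637 in tethered 1 to 3, against 1077, 829 and 678 in untethered 1 to 3 (-0.28, SE 0.24). One more, below the filter, had 588, 236 and 255 in tethered 1 to 3, against 746, 574 and 446 in untethered 1 to 3. On these, untethered 2 stood above tethered 2 and 3, while on the brightest it stood below tethered 3. A limma F test over the replicate number, with the group as a covariate, called the brightest Insig2 probe set (adjusted p = 0.0278; 0.094 on the other tested one) and 0 of the others among the 29 genes, where the same test called 5.07% of all genes and 5.16% of all probe sets, so 1 of 29 is no higher than the background. At an unadjusted p under 0.05 this test held 1 of the 29 genes, beside 21.2% of all genes and 22.6% of all probe sets. Its call for Insig2 was lost in 4 of the 6 fits that left out 1 array, those without tethered 1, tethered 3, untethered 1 or untethered 3, and a replicate number is known only as a label.

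The SREBP genes and their escort varied less. Srebf1, whose products favour fatty acid genes, had 2019, 1941 and 2084 in tethered 1 to 3, against 1971, 2159 and 2051 in untethered 1 to 3. Srebf2, whose product favours sterol genes, had 2781, 2564 and 3393 in tethered 1 to 3, against 3060, 3175 and 3551 in untethered 1 to 3. Scap had 2276, 2520 and 2779 in tethered 1 to 3, against 2429, 3077 and 2823 in untethered 1 to 3. Srebf1 and Srebf2 were lowest in tethered 2, as most sterol enzymes were, and Scap was lowest in tethered 1. Srebf1 ranged by only 0.15 log2 units between arrays, so its order of arrays carries little weight. Log2 fold changes were -0.03 (SE 0.07) for Srebf1, which turned to 0.0065 after quantile normalization, -0.17 (SE 0.12) for Srebf2 and -0.13 (SE 0.12) for Scap.

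Stard4, a carrier of sterols between membranes, had 1820, 1272 and 1297 in tethered 1 to 3, against 1499, 1947 and 1833 in untethered 1 to 3. Tethered 2 and 3 were lowest, and the log2 fold change was -0.28 (SE 0.17). Its other 2 tested probe sets lay above 0, at 0.18 and 0.05, so the probe sets of this gene did not give 1 direction.

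Fatty acid enzyme genes had values on both sides of 0. Of 6 genes, 3 had log2 fold changes below 0 and 3 above, with a median of -0.024, and 0 were called. That median was 0.029 after quantile normalization, 0.075 with probe sets averaged per gene and -0.109 without both arrays numbered 1, where 5 of 6 values were below 0. Their lowest array was untethered 1 in 4 genes, tethered 3 in 2 and tethered 2 in none, beside 19.7%, 12.6% and 20.3% of all genes tested. Tethered 2 was lowest or next to lowest in 5 of the 6, as it was in 15 of 17 sterol enzyme genes, beside 35.4% of all genes tested. After quantile normalization untethered 1 was lowest in 3 of the 6, beside 13.2% of all genes tested. With probe sets averaged per gene, untethered 1 was lowest in 4, untethered 2 in 2 and tethered 3 in 0, beside 20.5%, 12.6% and 12.6%. Their mean deviation was 0.07, -0.11 and 0.005 in tethered 1 to 3, against -0.18, 0.15 and 0.07 in untethered 1 to 3. In untethered 1 the sterol enzymes stood at -0.06, and the difference between the lists was not tested.

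Acly, which makes cytosolic acetyl-CoA from citrate, had 9753, 8143 and 9009 in tethered 1 to 3, against 7218, 8926 and 9590 in untethered 1 to 3. Acaca, the carboxylase that makes malonyl-CoA, had 2255, 2041 and 2365 in tethered 1 to 3, against 1761, 3366 and 2622 in untethered 1 to 3. Fasn, fatty acid synthase, had 7068, 5831 and 6818 in tethered 1 to 3, against 5365, 8094 and 7353 in untethered 1 to 3. All 3 genes were lowest in untethered 1, and Acaca and Fasn were highest in untethered 2. Log2 fold changes were 0.07 (SE 0.13) for Acly, -0.17 (SE 0.23) for Acaca and -0.06 (SE 0.17) for Fasn.

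Scd1 and Scd2, stearoyl-CoA desaturases that make monounsaturated fatty acids, were among the steadiest genes on their brightest probe sets. Scd1 had 6738, 6161 and 5851 in tethered 1 to 3, against 6333, 6129 and 6079 in untethered 1 to 3 (log2 fold change 0.01, SE 0.07). Scd2 had 15086, 14713 and 14174 in tethered 1 to 3, against 15603, 15550 and 15570 in untethered 1 to 3. Scd2 was the 1 gene of the 29 whose groups did not overlap, with tethered lower, beside 4.1% of all genes, and its log2 fold change was -0.09 (SE 0.06, 95% interval -0.23 to 0.06; limma adjusted p = 0.999). Elovl6, which lengthens palmitate, had 3991, 3427 and 4033 in tethered 1 to 3, against 3323, 3781 and 3638 in untethered 1 to 3 (0.09, SE 0.09).

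Other probe sets of the same genes gave another direction in many cases. Of 16 genes with more than 1 tested probe set, 10 had log2 fold changes on both sides of 0. Scd2 ran from -0.09 on its brightest probe set to 0.69 on its dimmest, which had 6561, 6246 and 6225 in tethered 1 to 3, against 4836, 1984 and 6363 in untethered 1 to 3. Untethered 2 was far below the other arrays on that probe set and level with them on the brightest one. Scd1's second probe set had 2140, 1865 and 2296 in tethered 1 to 3, against 1350, 1143 and 2090 in untethered 1 to 3 (log2 fold change 0.50, SE 0.23). Acaca's second probe set had 1168, 1140 and 1195 in tethered 1 to 3, against 772, 714 and 1306 in untethered 1 to 3 (0.38, SE 0.23). In these 3 probe sets untethered 1 and 2 were the lowest arrays, which are also the arrays with the lowest 5′ minus 3′ transferrin receptor signal (-2.81 and -3.07), and the part of RNA integrity in these values was not tested.

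Among sterol genes, Fdft1 ran from -0.39 to 0.24 over its 3 tested probe sets and Hsd17b7 from -0.44 to 0.002 over 4. The widest range on any member probe set was on an Lss probe set below the filter, with 1592, 178 and 216 in tethered 1 to 3, against 756, 686 and 347 in untethered 1 to 3, an 8.94-fold span. The brightest Lss probe set spanned 1.33-fold over the same arrays, with tethered 1 highest and tethered 2 lowest on both.

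**Figure D5:**
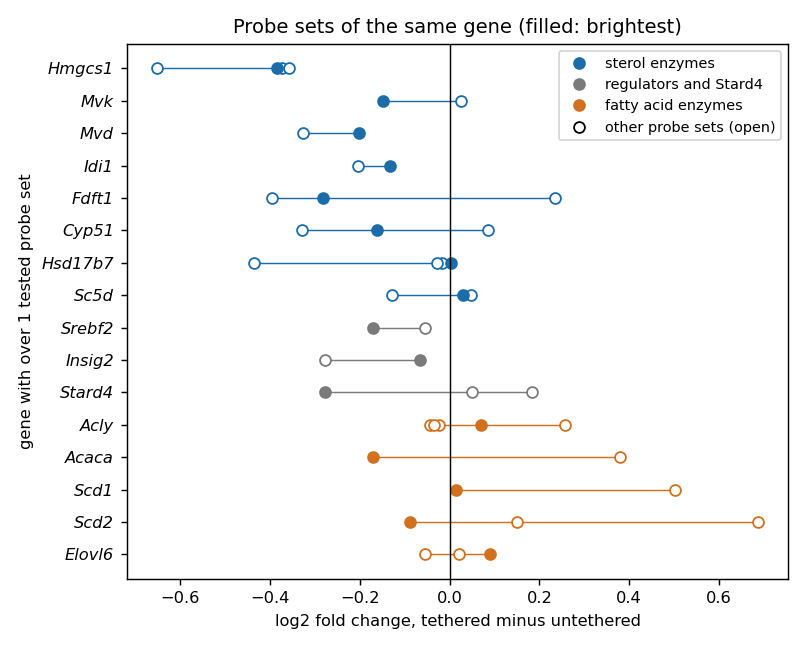
Log2 fold change, tethered minus untethered, of every tested probe set of the 16 genes that have more than 1, with the brightest filled. Hmgcs1, Mvd, Idi1, Srebf2 and Insig2 stay below 0 and Scd1 above, while the other 10 genes have values on both sides.

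Further genes of lipid metabolism were described from lists chosen with earlier results known, and limma called 0 of them between the groups. For sterol uptake, storage and efflux, 11 genes were tested, with 7 log2 fold changes below 0 and a median of -0.08. Lrp1, an endocytic lipoprotein receptor, had 2633, 3072 and 3216 in tethered 1 to 3, against 3842, 4071 and 3427 in untethered 1 to 3, with no overlap between the groups. Its log2 fold change was -0.35 (SE 0.11; limma unadjusted p = 0.0179, adjusted p = 0.999). Lrp1 was the 1 gene of the 11 without overlap, beside 4.1% of all genes with tethered lower. It was also the 1 of 11 at an unadjusted p under 0.05, beside 2.44% of all genes. Mylip, a ligase that lowers lipoprotein receptors, stood at -0.24, Nr1h3, the sterol-sensing LXR alpha, at 0.06 and Npc2, a lysosomal cholesterol carrier, at -0.08. Lbr, the lamin B receptor, an inner nuclear membrane protein that also reduces the same sterol bond as Tm7sf2, was named after its values were seen, and had 2016, 2511 and 3648 in tethered 1 to 3, against 1768, 3461 and 3770 in untethered 1 to 3. Lbr and Tm7sf2 were both lowest in untethered 1, while Lbr was highest in untethered 3 and Tm7sf2 in untethered 2.

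For SREBP processing and INSIG turnover, 9 genes were tested, 7 with values below 0 and a median of -0.06. Mbtps1, the site-1 protease that cuts SREBPs in the Golgi, had 2742, 2044 and 2443 in tethered 1 to 3, against 2661, 2807 and 2542 in untethered 1 to 3 (log2 fold change -0.16, SE 0.12). It was lowest in tethered 2, as most sterol enzymes were. Rnf139, a sterol-responsive ligase, stood at -0.23 (SE 0.11), Ubxn4 at -0.21 (SE 0.13) and Ufd1, a factor for extraction from the endoplasmic reticulum, at 0.11 (SE 0.11). For other steps of fatty acid and lipid synthesis, 17 genes were tested, 10 with values below 0 and a median of -0.03. Gpam, which starts glycerolipid synthesis, did not overlap between the groups, with 1850, 1774 and 1892 in tethered 1 to 3, against 2004, 2190 and 2004 in untethered 1 to 3 (-0.17, SE 0.07). It was the 1 gene of the 17 without overlap, beside 4.1% of all genes with tethered lower. Me1, a source of NADPH, stood at 0.28 (SE 0.14), Thrsp at 0.10 and Fads1, a desaturase, at -0.15. Lpin1, a phosphatidate phosphatase and SREBP target named after its values were seen, had 1783, 402 and 341 in tethered 1 to 3, against 1249, 1197 and 645 in untethered 1 to 3, and like Insig1 it was highest in tethered 1 and low in tethered 2 and 3.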

How the data were processed

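RNA from 3 tethered and 3 untethered samples was hybridised to 6 arrays. The authors deposited linear intensities for each probe set. The software and scaling behind them are named by no label or header used here. Array medians were nearly equal, and no further scaling was applied in the main fit. The 95th percentile of intensity was less even, at 3407, 3470 and 3886 in tethered 1 to 3, against 3377, 3926 and 3904 in untethered 1 to 3. Quantile normalization was run as an alternative. Intensities under 16 were set to 16, log2 was taken, 64 control probe sets were left out, and 22518 probe sets with a mean above the median were tested with limma 3.58.1 in R 4.3.3 (linear model, empirical Bayes, Benjamini-Hochberg over all tested probe sets, two-sided, threshold 0.05). Errors are limma standard errors, with precision set by 3 arrays a group. Symbols were updated through the gene identifier to RefSeq (GRCm38.p6), where 99.4% of the identifiers with 1 symbol were found. The scripts were tested on simulated data. The members, lists and the naming rule (all members, and up to 4 genes of smallest p per further list) were chosen with earlier results of these data known. Alternatives covered scaling, floor, filter, probe sets, moderation, the replicate block and left-out arrays.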

Additional observations from a re-analysis of the deposited data

How the results depend on the processing

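With 1 array left out, the sterol median ran from -0.245 to -0.0066 and the fatty acid median from -0.075 to 0.052, and limma called 0 members and 0 probe sets between the groups in every fit run, including the unmoderated one. At an unadjusted p under 0.05 the count of probe sets was 536, against 1782 with no filter, 1232 with the replicate block and 1487 without both arrays numbered 1. In that last fit 12 of the 29 members were among them, beside 6.39% of all genes, and these members vary together over the arrays. The test over replicate numbers called 1161 probe sets, against 645 with no filter and 2 without moderation, and from 0 to 2979 with 1 array left out (0 without tethered 3 or untethered 3). It called 1 member, against 0 without moderation, 0 with the filter at the upper quartile, where Insig2 was not tested, and from 0 to 1 with 1 array left out. Deviations from the group means correlated at 0.71, 0.075 and 0.71 between same-numbered arrays 1, 2 and 3, and tethered 2 correlated best with untethered 3 (0.36). Same-numbered arrays were thus alike for numbers 1 and 3 but not for number 2, which does not settle whether the numbers pair the samples. The labels state no pairing, so the main fit used none, and the replicate block is the alternative. With the replicate block, which cannot move a fold change in this balanced design, the medians are -0.138 and -0.024 by construction, and 0 members were called. The sign of a member's value changed in 33 of 403 combinations of member and alternative, and the cause was not tested. Values turned to 0.0065 for Srebf1 after quantile normalization, to -0.024 for Scd1, -0.13 for Ebp, -0.205 for Sc5d and -0.11 for Acly without both arrays numbered 1, and to 0.25 for Scd2, -0.12 for Hsd17b7, 0.105 for Acaca and -0.017 for Sc5d when probe sets were averaged per gene. With 1 array left out, Scd1 from -0.042 to 0.060, Nsdhl from -0.21 to 0.0092, Ebp from -0.084 to 0.15, Hsd17b7 from -0.030 to 0.030, Insig2 from -0.27 to 0.14, Fdps from -0.18 to 0.050, Fasn from -0.24 to 0.060, Srebf1 from -0.063 to 0.0021, Pmvk from -0.36 to 0.038, Acaca from -0.42 to 0.044, Dhcr7 from -0.30 to 0.051, Mvd from -0.63 to 0.094, Cyp51 from -0.36 to 0.041, Idi1 from -0.28 to 0.047, Sc5d from -0.098 to 0.18, Acly from -0.049 to 0.16 and Tm7sf2 from -0.23 to 0.065 crossed 0.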

Other observations

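Genes of fatty acid oxidation and of the other isoprenoid branches were not called between the groups either. Of 8 oxidation genes tested, 6 had log2 fold changes below 0, with a median of -0.06. Acadm, a medium-chain acyl-CoA dehydrogenase, had 1362, 1463 and 1639 in tethered 1 to 3, against 1546, 1652 and 1715 in untethered 1 to 3 (-0.14, SE 0.09). Both groups were lowest in the array numbered 1 for this gene. Cpt2, Hadhb and Cpt1a stood at -0.07, -0.27 and 0.06. Of 7 genes that lead from farnesyl diphosphate to other products, 3 had values below 0, with a median of 0.05. Ggps1, which makes geranylgeranyl diphosphate, had 705, 487 and 475 in tethered 1 to 3, against 443, 459 and 511 in untethered 1 to 3 (0.22, SE 0.17). Tethered 1 alone was high for Ggps1, and Coq2, Icmt and Fnta stood at -0.20, 0.096 and -0.13.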
